A study of Mus musculus with 12 samples.

Results

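The 10 genes described here belong to the integrated stress response and centre on the transcription factors ATF4 and CHOP: Atf4, Atf3, Ddit3, which encodes CHOP, Nupr1, Trib3, Ppp1r15a, Asns, Chac1, Sesn2 and Ddit4. They were chosen by name among the 27179 genes of the count files, with earlier results of these data known. The Entrez identifiers of the files had first been matched to mouse symbols. All 10 genes passed the filter on low counts that left 14185 genes for testing. RNA-Seq covered 4 groups of primary hippocampal cultures from newborn C57BL/6 mice (P0 or P1), with 3 libraries in each group: somas and neurites of Ctrl cultures, and somas and neurites of cultures given MG132. The methods of the study also name FVB mice for these cultures. The cultures were 17 or 18 days old and grew on Transwell inserts, whose porous membrane keeps cell bodies on its upper face and lets axons and dendrites grow through, so that somas and neurites can be collected apart. MG132, a proteasome inhibitor, was given at 10 μM for 7 h, and the study names DMSO, its solvent, as the control treatment. The 3 libraries of a group are separate samples in the labels, and nothing there says whether they came from separate litters, so p-values measure the spread between these libraries.

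The integrated stress response begins when a kinase that senses stress phosphorylates the translation factor eIF2. General translation then falls, while a few mRNAs with upstream open reading frames, Atf4 among them, are translated more. ATF4 protein, alone or with partners such as CHOP and the C/EBP proteins, raises the transcription of genes for amino acid supply, redox balance, feedback on eIF2 and, when stress lasts, cell death. Proteasome inhibitors are known triggers of this response. In neurons the same pathway also sets the rate of protein synthesis that memory formation relies on. Only mRNA was measured here, and the translation of Atf4 and the phosphorylation of eIF2 were not.

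Since ATF4 and CHOP act by binding DNA, the promoters of the 10 genes were searched for 3 short motifs, and the sites found are shown. Whether these sites bear on the counts was not tested. Each window ran from 250 bases before to 50 bases after the transcription start in RefSeq (GRCm38.p6), and all 10 genes had one. The composite C/EBP-ATF motif TGATGNAA, read on both strands, occurred in 5 of the 10 windows and in 3.97% of all 32851 windows. The cAMP response element TGACGTNA occurred in 2 of the 10 and in 2.93% of all windows. The AP-1 motif TGANTCA occurred in 1 of the 10 and in 7.81% of all windows. Sites are printed 5′ to 3′ on the strand of the gene, with the motif in capitals and 30 bases in all, and positions count from the transcription start at 0. The first 5 lines hold the composite motif, the next 2 the cAMP response element and the last line the AP-1 motif.
Atf3, chr1:191183425-191183454, minus strand, motif from -110 to -103: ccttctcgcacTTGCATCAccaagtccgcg
Chac1, chr2:119351038-119351067, plus strand, motif from -193 to -186: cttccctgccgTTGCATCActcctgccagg
Nupr1, chr7:126625562-126625591, minus strand, motif from -110 to -103: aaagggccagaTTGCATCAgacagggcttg
Trib3, chr2:152344028-152344057, minus strand, motif from 14 to 21: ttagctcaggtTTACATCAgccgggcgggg
Asns, chr6:7693214-7693243, minus strand, motif from -23 to -16: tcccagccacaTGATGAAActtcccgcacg
Atf3, chr1:191183325-191183354, minus strand, motif from -10 to -3: tattaatagcaTTACGTCAgcctgggattg
Ppp1r15a, chr7:45526262-45526291, minus strand, motif from -12 to -5: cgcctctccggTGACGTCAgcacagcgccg
Ddit3, chr10:127290543-127290572, plus strand, motif from -242 to -236: cgcgcgcaTGACTCActcacctcctccgcg

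In Atf3, Chac1 and Nupr1 the matched letters of the composite motif were the same, TTGCATCA, which is the motif read from the other strand. In Asns the motif lay on the strand of the gene, and in Trib3 it lay just downstream of the start. Atf3 was the gene with 2 of the 3 motifs. The windows of Atf4, Sesn2 and Ddit4 held none of these letters, which says nothing about sites elsewhere. A match is a stretch of letters and not a measured binding site.

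A library held between 4247610 and 22166347 counted reads, and 1 gene took between 12.4% and 33.4% of them. Levels are given as CPM, which are counts relative to the size of the library after scaling by edgeR's TMM factors. These factors were 1.18 to 1.44 in soma libraries and 0.567 to 0.999 in neurites libraries. Compared with total counts, the scaling thus raised neurites levels relative to soma levels. Depending on the library, 1 read was worth between 0.041 and 0.265 CPM. Neuron markers were present in all 4 groups, with a summed level of 998 to 3870 CPM for 8 genes. Glial markers were present too. The 6 astrocyte markers summed to 3240 to 4360 CPM in Ctrl somas and 17500 to 23500 CPM in Ctrl neurites, and to 1850 to 2570 and 8100 to 18700 CPM in MG132 somas and neurites. The 6 microglia markers summed to 505 to 619 CPM in Ctrl somas and 507 to 1000 CPM in Ctrl neurites, against 124 to 217 and 76.7 to 170 CPM after MG132. Beside the stress genes, 3 of 6 microglia markers and 3 of 6 astrocyte markers were lower in MG132 somas than in Ctrl somas, and 4 and 2 were lower in MG132 neurites. Of all tested genes, 5.72% were lower in somas and 5.67% in neurites. Of the 6 oligodendrocyte lineage markers, 2 were lower in each fraction, with Pdgfra at -3.67 in somas and -3.48 in neurites and Olig1 at -1.61 and -2.15 on the log2 scale, and the list summed to 1360 to 5930 CPM in Ctrl somas, 4910 to 21700 in Ctrl neurites, 458 to 5510 in MG132 somas and 2820 to 15700 in MG132 neurites. The 5 endothelial and fibroblast markers summed to 140 to 185 and 35.8 to 73 CPM in Ctrl somas and neurites and to 52.5 to 71.2 and 22.9 to 38.9 CPM after MG132, and of the 3 that could be tested, Col1a1 was lower in MG132 somas, at -2.15. The 8 neuron markers had log2 fold changes between -0.59 and 0.09 and were not called. No gene of the 3 glial lists was at 0 throughout a group, and of the endothelial and fibroblast markers Cldn5 was at 0 in 3 of the 4 groups and held 2 reads in all in the other. Fewer cells of a type and less RNA per cell cannot be told apart in such bulk libraries, and the part of glial and other cells in the values of the stress genes was not tested.

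After MG132, the mRNAs of 9 of the 10 genes rose in somas and the same 9 rose in neurites, and none fell in either fraction. A gene was counted as higher or lower at an adjusted p under 0.01 in edgeR's quasi-likelihood test, a rule that called 9.52% of all tested genes higher and 5.72% lower in somas, and 9.76% higher and 5.67% lower in neurites. In each fraction the 3 MG132 libraries lay above the 3 Ctrl libraries for all 9, without overlap. Such separation was not counted over all tested genes. The median log2 fold change of the 10 genes was 2.90 in somas and 3.0 in neurites, against -0.07 and -0.16 for all tested genes. With a log2 fold change above 1.7 required as well, all 9 were still called in both fractions, beside 2.11% of tested genes in somas and 2.44% in neurites. None of the 10 reached an unadjusted p under 0.05 in the downward direction, and DESeq2 also called 9 higher and 0 lower in each fraction. Ddit4 was the gene that was not called.

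**Figure D1:**
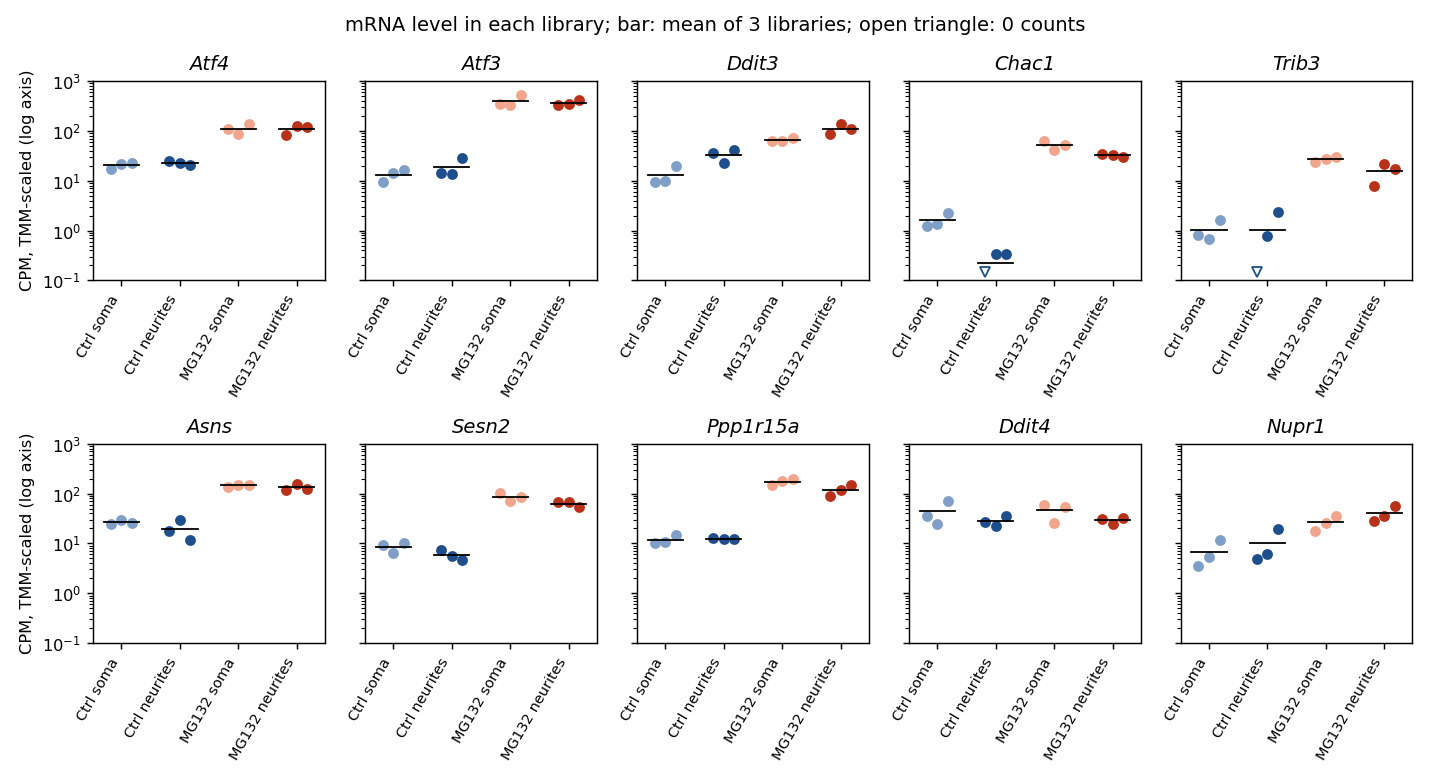
Level of the 10 stress genes in each of the 12 libraries, in CPM on a log axis, with a bar at the mean of the 3 libraries of a group and an open triangle for a library with 0 counts. For 9 genes the MG132 libraries sit above the Ctrl libraries in both fractions, while the Ddit4 libraries of all groups lie between 22.8 and 70.7 CPM.

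Atf4, the central transcription factor of the pathway (Entrez 11911, chr15:80255184-80257545, plus strand), measured 17.5, 22.0 and 22.7 CPM in the Ctrl soma libraries and 109, 86.5 and 136 CPM in the MG132 soma libraries. In neurites it measured 24.9, 23.2 and 20.4 CPM in Ctrl and 83.0, 126 and 122 CPM after MG132. Ctrl libraries of both fractions fell in a narrow band, and the lowest MG132 library was more than 3 times above the highest of them. The rise was 2.42 on the log2 scale in somas (SE 0.22, adjusted p = 4.94e-06) and 2.28 in neurites (SE 0.22, adjusted p = 6.09e-06).

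Atf3, a bZIP factor that ATF4 and CHOP are known to induce (Entrez 11910, chr1:191170296-191183333, minus strand), had the highest level per kb of the 10 after MG132. It measured 9.46, 14.0 and 16.3 CPM in Ctrl somas and 348, 332 and 531 CPM in MG132 somas. In neurites the values were 14.3, 13.9 and 28.8 CPM in Ctrl and 331, 341 and 410 CPM in MG132. One Ctrl neurites library, number 3, stood above the other two, yet every MG132 library was over 10 times higher than it. The log2 fold change was 4.94 in somas (SE 0.33, adjusted p = 3.02e-07) and 4.25 in neurites (SE 0.32, adjusted p = 7.56e-07), ranking 27 and 56 among all tested genes.

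Ddit3 encodes CHOP, a C/EBP family factor that is held low in unstressed cells (Entrez 13198, chr10:127290793-127296291, plus strand). It measured 9.39, 10.1 and 19.3 CPM in Ctrl somas and 61.9, 64.1 and 72.2 CPM in MG132 somas. In Ctrl neurites it measured 36.8, 22.6 and 41.2 CPM, already above all Ctrl soma libraries, and in MG132 neurites 86.0, 137 and 111 CPM. The rise was 2.36 in somas (SE 0.30, adjusted p = 6.53e-05) and 1.74 in neurites (SE 0.29, adjusted p = 4.54e-04). Exons of Ddit3 overlap 2 genes on the opposite strand, Mars and Gm4189, over 81 bases, and whether the counting used strand is not stated beyond default parameters.

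Nupr1, a small chromatin-associated regulator of stress transcription (Entrez 56312, chr7:126623246-126625470, minus strand), gave 3.59, 5.32 and 11.5 CPM in Ctrl somas and 18.0, 25.8 and 35.9 CPM in MG132 somas. Its neurites libraries measured 4.76, 6.26 and 19.2 CPM in Ctrl and 28.7, 35.9 and 55.4 CPM in MG132. In all 4 groups library 3 was the highest, and MG132 and Ctrl libraries did not overlap within a fraction. The rise was 1.99 in somas (SE 0.50, adjusted p = 0.00909) and 1.98 in neurites (SE 0.51, adjusted p = 0.00947), the smallest of the 9 in somas and close to the threshold. Without Ctrl library 3 the values were 2.58 in somas and 2.95 in neurites, and leaving out each library in turn gave 1.66 to 2.58 and 1.67 to 2.95. The edgeR call was lost in somas without Ctrl library 1 or 2 or without MG132 library 2 or 3, with adjusted p from 0.0185 to 0.0426, and in neurites without MG132 library 1, 2 or 3 or Ctrl library 1 or 2, with adjusted p from 0.0113 to 0.0448. It was also lost with DESeq2 size factors in somas (adjusted p = 0.0108 in edgeR), with total counts in neurites (0.013), with the neurites libraries alone (0.013), and in both fractions with at least 10 counts required in every library (0.0104 and 0.0108).

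The 2 feedback inhibitors of the set, Trib3 and Ppp1r15a, rose in both fractions. Trib3 encodes a pseudokinase that binds ATF4 and restrains it (Entrez 228775, chr2:152337425-152344060, minus strand). It was close to the limit of detection in Ctrl cultures, at 0.829, 0.665 and 1.66 CPM in somas and 0, 0.783 and 2.35 CPM in neurites. MG132 somas held 24.1, 27.8 and 29.9 CPM and MG132 neurites 7.99, 22.0 and 17.6 CPM. The MG132 neurites libraries were uneven, with library 1 the lowest, but none came near the Ctrl range. The log2 fold change was 4.70 in somas (SE 0.60, adjusted p = 7.2e-05) and 3.84 in neurites (SE 0.62, adjusted p = 3.49e-04). Without Ctrl neurites library 3 the value in neurites was 5.04, and over the 6 libraries left out in turn it ranged from 3.43 to 5.04, with the call kept. Because Ctrl neurites held 21 reads of Trib3 in all, the ratio of pooled counts in neurites was 17.2 with a 95% counting interval of 11.1 to 27.9.

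Ppp1r15a encodes GADD34, the subunit that brings a phosphatase to eIF2 and so reverses the block of translation (Entrez 17872, chr7:45522917-45526268, minus strand). Its Ctrl levels were 10.2, 10.8 and 14.5 CPM in somas and hardly varied in neurites, at 12.7, 12.3 and 12.3 CPM. MG132 libraries held 149, 176 and 192 CPM in somas and 91.3, 119 and 148 CPM in neurites. The MG132 neurites libraries lay just below the MG132 soma libraries. The log2 fold change was 3.87 in somas (SE 0.22, adjusted p = 6.89e-08), which ranked 5 among all tested genes by p, and 3.27 in neurites (SE 0.22, adjusted p = 3.9e-07). The gene shares 12 exonic bases with Tulp2 on the opposite strand.

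Asns and Chac1 are metabolic targets of ATF4. Asns encodes asparagine synthetase (Entrez 27053, chr6:7675165-7693209, minus strand) and measured 24.9, 29.1 and 25.4 CPM in Ctrl somas and 135, 152 and 151 CPM in MG132 somas. Neurites held 17.7, 29.6 and 11.6 CPM in Ctrl and 116, 158 and 124 CPM after MG132. Ctrl neurites were the least even of the 4 groups, and no MG132 library came within 3 times of a Ctrl library. Asns rose by 2.46 in somas (SE 0.26, adjusted p = 1.81e-05) and 2.74 in neurites (SE 0.27, adjusted p = 6.83e-06) on the log2 scale.

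Chac1 encodes an enzyme that breaks down glutathione (Entrez 69065, chr2:119351242-119354326, plus strand), and it had the largest log2 fold change of the 10 genes in neurites, while in somas it and Atf3 lay within a standard error of each other. It measured 1.24, 1.33 and 2.21 CPM in Ctrl somas and 62.8, 40.7 and 52.1 CPM in MG132 somas. In Ctrl neurites the 3 libraries held 0, 3 and 2 reads, or 0, 0.336 and 0.336 CPM, while MG132 neurites held 34.0, 33.2 and 30.4 CPM. The MG132 neurites libraries were close to each other and below every MG132 soma library. In somas Chac1 rose by 5.04 (SE 0.33, adjusted p = 3.01e-07). In neurites the fitted value was 6.88 (SE 0.43, adjusted p = 1.99e-07), a size that depends on how 5 reads in Ctrl are treated. From the pooled counts the neurites ratio was 123, with a 95% counting interval of 52.4 to 378, and the soma ratio was 34.9, with an interval of 26.3 to 47.1. Such intervals cover counting error only.

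Sesn2 and Ddit4 both encode proteins that restrain the growth kinase complex mTORC1, and they behaved differently. Sesn2, a leucine sensor (Entrez 230784, chr4:132492804-132510456, minus strand), measured 9.26, 6.43 and 10.0 CPM in Ctrl somas and 104, 71.8 and 84.5 CPM in MG132 somas. In neurites it measured 7.41, 5.70 and 4.71 CPM in Ctrl and 68.0, 68.5 and 52.7 CPM after MG132. Every MG132 library was over 5 times above every Ctrl library. The rise was 3.33 in somas (SE 0.25, adjusted p = 6.66e-07) and 3.43 in neurites (SE 0.26, adjusted p = 7.56e-07).

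Ddit4, known as REDD1 and also induced by hypoxia and glucocorticoids (Entrez 74747, chr10:59949675-59951770, minus strand), measured 36.2, 24.3 and 70.7 CPM in Ctrl somas and 59.0, 26.0 and 53.1 CPM in MG132 somas. In neurites the values were 27.5, 22.8 and 35 CPM in Ctrl and 31.0, 25.1 and 32.3 CPM in MG132. The MG132 and Ctrl libraries overlapped in both fractions, and library 2 was the lowest of each group. The log2 fold change was 0.08 in somas (95% interval -0.67 to 0.84, adjusted p = 0.888) and 0.05 in neurites (-0.73 to 0.82, adjusted p = 0.936). Its sign turned under other filters and scalings, with values given below. The intervals leave room for a change of up to 0.84 on the log2 scale, which is less than the rise of any of the other 9 genes.

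**Figure D2:**
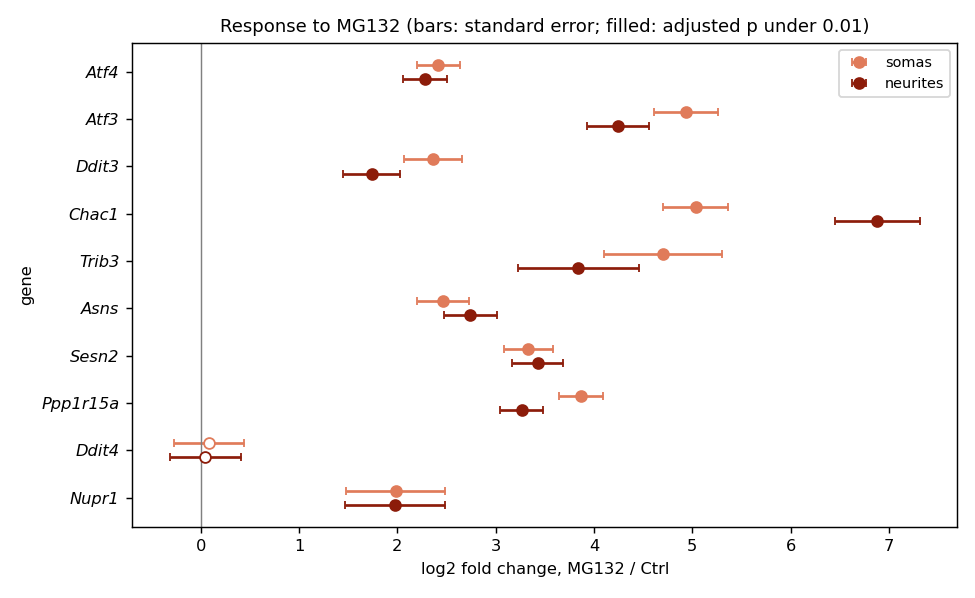
Log2 fold change of each gene, MG132 against Ctrl, in somas (light) and neurites (dark), with bars for the standard error and filled points for an adjusted p under 0.01. All points but those of Ddit4 are filled and lie between 1.74 and 6.88.

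Levels of different genes were compared per kb of exon. In Ctrl somas the order began with Ddit4 at 24.9 ± 13.7 CPM per kb (SD, n = 3), followed by Asns at 9.67 ± 0.828, Atf4 at 8.80 ± 1.19 and Ddit3 at 7.55 ± 3.23. Atf3 at 6.15 ± 1.62 and Ppp1r15a at 4.02 ± 0.784 came next, then Nupr1 at 2.7 ± 1.65, Sesn2 at 2.47 ± 0.546, Chac1 at 0.973 ± 0.325 and Trib3 at 0.494 ± 0.25. Each neighbour overlapped the next from Asns down to Sesn2, and Chac1 overlapped Trib3, whereas Ddit4 lay above Asns and Sesn2 lay above Chac1 in every library. In Ctrl neurites Ddit3 came first at 19.6 ± 5.68 CPM per kb, ahead of Ddit4 at 16.2 ± 3.5, with overlapping libraries, and Chac1 came last at 0.137 ± 0.118.

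After MG132 the order was led by Atf3 in both fractions, at 187 ± 51.4 CPM per kb in somas and 167 ± 20 in neurites, above every library of any other member. In MG132 somas Ppp1r15a at 58.6 ± 7.48, Asns at 53.3 ± 3.32 and Atf4 at 46.8 ± 10.5 followed with overlapping libraries, and Ddit3 stood at 38.6 ± 3.18. In MG132 neurites Ddit3 was the second, at 64.9 ± 14.7 CPM per kb, and overlapped Asns at 48.6 ± 8.15. Ddit4, the leader in Ctrl somas, took place 7 of 10 in MG132 somas and 8 of 10 in MG132 neurites.

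**Figure D3:**
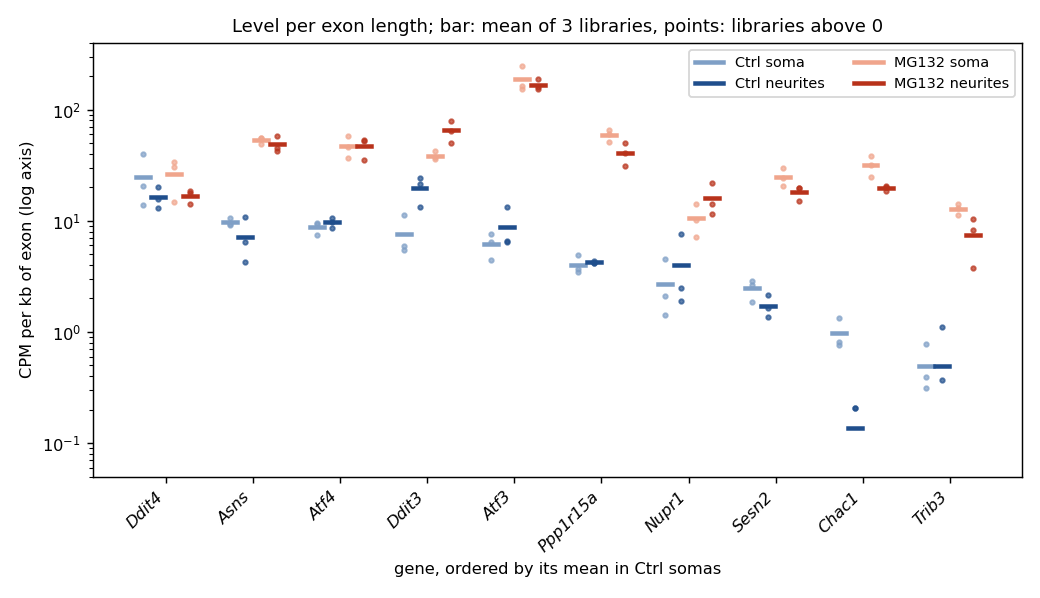
Level of the 10 genes in CPM per kb of exon on a log axis, ordered by the mean in Ctrl somas, with bars for the mean of 3 libraries and points for libraries above 0. Ddit4 leads in Ctrl somas at 24.9 CPM per kb and Atf3 leads in MG132 somas at 187.

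The distribution between compartments was compared next, neurites against somas. In Ctrl cultures, Ddit3 was higher in neurites and Chac1 was lower, and the other 8 genes were not called. The same rule called 6.3% of all tested genes higher and 1.3% lower in Ctrl neurites. Ddit3 differed by 1.37 on the log2 scale (SE 0.29, adjusted p = 0.00501), or 2.59-fold, and was higher in 3 of 3 same-numbered pairs. Its neurites and soma libraries did not overlap with TMM factors. How many of all tested genes separated in this way was not counted, and overlap under other scalings was not examined. Chac1 differed by -2.52 (SE 0.52, adjusted p = 0.00383), from 50 reads in somas and 5 in neurites, and was lower in 3 of 3 pairs. Trib3, equally scarce, gave 0.10 with a wide interval of -1.35 to 1.56. Sesn2 gave -0.55 (SE 0.25, adjusted p = 0.168) and the other 6 genes lay between -0.62 and 0.59.

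Both calls rested on few libraries. The edgeR call of Ddit3 was lost without Ctrl soma library 1 or 2 or without Ctrl neurites library 1 or 3, with adjusted p from 0.0159 to 0.0361, and with total counts in place of TMM factors its log2 ratio was 0.72 (adjusted p = 0.144). The call of Chac1 was lost without Ctrl soma library 3 or without Ctrl neurites library 2 or 3, with adjusted p from 0.0127 to 0.0146. Fitted on the 6 Ctrl libraries alone, neither gene was called by edgeR (adjusted p = 0.0247 for Ddit3 and 0.114 for Chac1). The scaling mattered for this comparison as a whole, since TMM gave 894 genes higher and 185 lower in Ctrl neurites and total counts gave 179 and 938, with the median of all genes at -0.04 and -0.70.

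After MG132, none of the 10 genes was called between neurites and somas by edgeR or DESeq2, in a comparison with 7.2% of all genes higher in neurites and 2.16% lower. By edgeR, 1 gene was higher and 2 were lower at an unadjusted p under 0.05. At that level 2366 of all 14185 tested genes were higher and 2022 lower. Ddit3 again had the largest positive value, 0.75 (SE 0.28, adjusted p = 0.0751), and all 3 MG132 neurites libraries lay above all 3 MG132 soma libraries. Chac1, Trib3, Sesn2 and Ppp1r15a were lower in neurites without overlap, by -0.67, -0.76, -0.46 and -0.53, with adjusted p from 0.0755 to 0.315. How many of all tested genes lay without overlap in this comparison was not counted, so the separation is given as a description. Atf4 was at 0.00 (95% interval -0.44 to 0.44) with TMM factors and at -0.78 (adjusted p = 0.0641 in edgeR) with total counts. With the replicate number as a block, Ddit3 was called higher at 0.77 (adjusted p = 0.00908) and Ppp1r15a lower at -0.54 (adjusted p = 0.00919) by edgeR. The block called 1572 of all 14185 tested genes higher and 910 lower, against 1021 and 307 without it. The replicate numbers come from the labels, and the name of 1 MG132 neurites library carries another date than the other libraries of its number.

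With total counts, which moved the median of all genes to -0.86, 4 genes were called lower in MG132 neurites, at -1.47 for Chac1, -1.23 for Sesn2, -1.33 for Ppp1r15a and -1.50 for Ddit4. Under that scaling 138 genes were higher and 2118 lower, against 1021 and 307 with TMM. The nuclear transcripts Malat1, Neat1 and Meg3 summed to 5040 to 6540 CPM in Ctrl somas and 1690 to 3690 in Ctrl neurites, and to 7190 to 8460 and 1970 to 3860 CPM after MG132. Of the astrocyte markers, 2 of 6 were higher and 1 lower in Ctrl neurites, and 4 were higher and 1 lower in MG132 neurites. The part of these differences in the ratios of the stress genes was not tested.

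**Figure D4:**
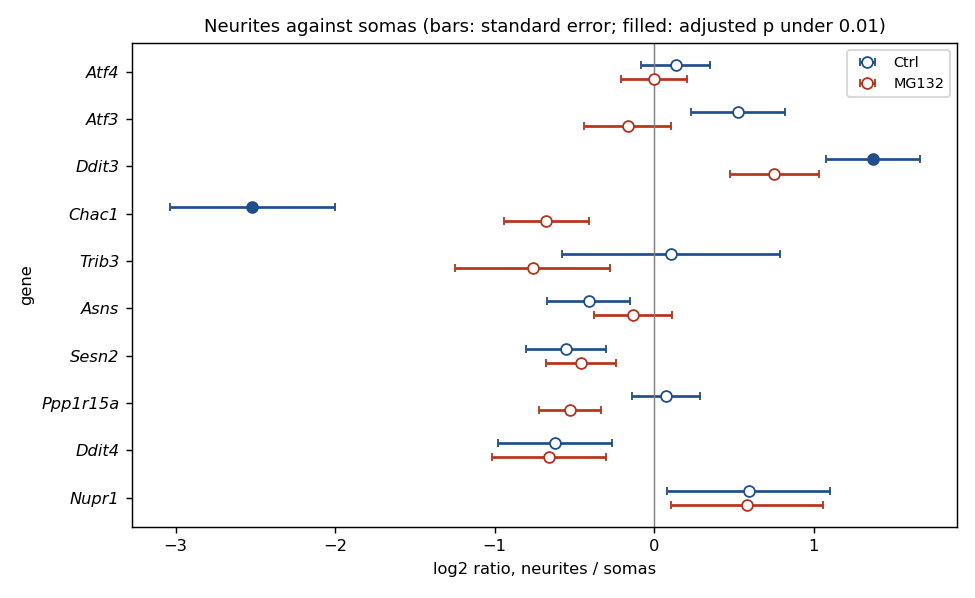
Log2 ratio of neurites to somas for each gene in Ctrl (blue) and MG132 (red) cultures, with bars for the standard error and filled points for an adjusted p under 0.01. The filled points are Ddit3 at 1.37 and Chac1 at -2.52, both in Ctrl.

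Whether the response itself differed between compartments was tested as the interaction, which is the log2 fold change in neurites minus that in somas. None of the 10 genes was called by edgeR or DESeq2, and the edgeR test called 0% of all genes higher and 0% lower, with a smallest adjusted p of 0.328. Chac1 had the largest difference, 1.84 (SE 0.60, adjusted p = 0.484), positive in 3 of 3 numbered sets, and it was the gene with an unadjusted p under 0.05. The size for Chac1 carries the same 5 Ctrl neurites reads. At an unadjusted p under 0.05, 474 of all tested genes were higher and 526 lower. Ppp1r15a at -0.60 (SE 0.29), Atf3 at -0.69 (SE 0.40), Ddit3 at -0.62 (SE 0.40) and Trib3 at -0.87 (SE 0.85) had negative values with adjusted p between 0.716 and 0.911. For Atf4 the difference was -0.13 with a 95% interval of -0.78 to 0.51, and for Asns it was 0.28 with an interval of -0.49 to 1.04.

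Across the 12 libraries, the log2 levels of the 9 called genes moved together. Pearson's r lay between 0.691 (Ddit3 with Chac1) and 0.986 (Atf3 with Ppp1r15a) for the 36 pairs among them, with a median of 0.915. For the 9 pairs that include Ddit4, r lay between -0.0113 and 0.262. These libraries include both Ctrl and MG132 cultures, so r carries the difference between them and is given as a description. Outside the 10 genes, the levels most like Atf4 were those of Nmd3 (r = 0.992), which encodes a ribosome export factor, Yars (0.991), which encodes tyrosyl-tRNA synthetase, and Rad54l2 (0.987). For Ddit3 they were Zfas1 (0.982), a noncoding RNA that hosts small nucleolar RNAs, Imp4 (0.974) and Ergic2 (0.974).

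The rest of the pathway was read from 7 lists, which were likewise chosen with earlier results of these data known. They held 68 genes, of which 65 were tested. In somas 27 were higher and 2 lower after MG132, and in neurites 25 were higher and 3 lower, with a median log2 fold change of 0.96 and 0.90. Of all tested genes, 9.52% were higher and 5.72% lower in somas, and 9.76% and 5.67% in neurites. With total counts in place of TMM factors, 15 were higher in neurites, beside 481 of all 14185 tested genes. With the replicate block 5 were lower there, beside 1613 of all tested genes. The eIF2 kinases open the pathway, and 1 of the 4 was called, in somas. Eif2ak4, which encodes GCN2, the sensor of uncharged tRNA, rose by 0.89 in somas (SE 0.21, adjusted p = 0.00672) and measured 0.47 in neurites (adjusted p = 0.127). Eif2ak3, which encodes PERK, the sensor in the endoplasmic reticulum, gave 0.41 and 0.44 (adjusted p = 0.249 and 0.221). Eif2ak1, which encodes HRI, gave 0.33 and 0.55 (adjusted p = 0.214 and 0.045), and Eif2ak2, which encodes PKR, gave -0.30 and -0.72 (adjusted p = 0.443 and 0.0572). Of 11 subunits of eIF2, eIF2B and the phosphatase PP1, 5 rose in somas and 5 in neurites. Eif2s2, which encodes the beta subunit of eIF2, rose by 1.56 and 1.82 (adjusted p = 1.89e-04 and 4.31e-05 by edgeR), Eif2b4 by 1.42 in somas and Eif2b3 by 1.84 in neurites.

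Among 10 bZIP partners of ATF4 and CHOP, Jun rose in both fractions, by 2.07 in somas (adjusted p = 6.11e-06) and 1.91 in neurites (adjusted p = 9.48e-06). Its levels went from 51.8, 50.5 and 51.5 CPM to 205, 198 and 244.1 CPM in somas, and from 30.2, 41.0 and 48.6 CPM to 136, 179 and 136 CPM in neurites. Atf5, a close relative of Atf4, fell in neurites. It measured 284, 162 and 175 CPM in Ctrl neurites and 80.3, 87.7 and 53.3 CPM in MG132 neurites, a log2 fold change of -1.48 (SE 0.25, adjusted p = 4.8e-04). In somas the 6 libraries lay between 16.2 and 25.3 CPM, with a log2 fold change of 0.00 (adjusted p = 0.994). The difference of the 2 responses, -1.49 (SE 0.35), was not called by edgeR (adjusted p = 0.328). In neurites Atf5 thus moved opposite to Atf4 and Atf3, and in Ctrl cultures it was higher there than in somas (log2 ratio 3.31, SE 0.27, adjusted p = 1.83e-06).

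Of 20 genes for amino acid synthesis and transport, a class that holds known targets of ATF4, 13 rose in somas and 11 in neurites. The same rule called 9.52% of all tested genes higher in somas and 9.76% in neurites. The part of ATF4 in these rises was not tested. Slc7a11, the cystine transporter that feeds glutathione synthesis, had the smallest p of all tested genes in both fractions. It measured 14.0, 12.9 and 16.9 CPM in Ctrl somas and 854, 1081 and 845 CPM in MG132 somas, and 15.4, 19.6 and 14.3 CPM in Ctrl neurites and 1006, 867 and 942 CPM in MG132 neurites. The log2 fold change was 5.99 in somas (SE 0.22, adjusted p = 6.73e-10) and 5.83 in neurites (SE 0.22, adjusted p = 9.89e-10). Mthfd2, a mitochondrial folate enzyme, rose by 4.03 in somas, and Cth, which makes cysteine from cystathionine, rose by 4.28 in neurites from 12 Ctrl reads in all. Cbs, the enzyme before Cth in that path, gave -1.35 and -0.97 and was not called (adjusted p = 0.0625 and 0.189).

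Among 9 translation brakes and secreted stress signals, of which 7 were tested, 2 rose in somas and 3 in neurites. The shares of all tested genes called higher were 9.52% in somas and 9.76% in neurites. Gdf15, a secreted stress hormone, was almost absent from Ctrl cultures, with 6 reads over the 3 soma libraries and 5 over the 3 neurites libraries. After MG132 it measured 44.9, 59.9 and 54.1 CPM in somas and 10.3, 32.4 and 36.0 CPM in neurites, so that every MG132 library stood far above Ctrl. The ratio of pooled counts was 284 (95% counting interval 130 to 775) in somas and 112 (47.9 to 346) in neurites. Eif4ebp1, a repressor of cap-dependent translation, rose by 2.68 and 2.05 (adjusted p = 3.21e-04 and 0.00159). Fgf21, Adm2 and, among the paralogs, Nupr1l had too few reads to be tested.

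The 6 CHOP-linked cell death genes moved in both directions. The BH3-only genes Pmaip1 (2.97 in somas and 2.30 in neurites) and Bcl2l11 (1.93 and 1.35) and the death receptor gene Tnfrsf10b (2.36 and 2.46) rose in both fractions. Bcl2, an inhibitor of apoptosis that CHOP is known to repress, fell by 1.73 in somas (SE 0.31, adjusted p = 8.87e-04) and by 2.57 in neurites (SE 0.31, adjusted p = 3.68e-05). It went from 33.0, 32.9 and 20.5 CPM to 6.29, 10.7 and 9.27 CPM in somas, and from 94.2, 77.4 and 99.2 CPM to 8.44, 20.7 and 15.5 CPM in neurites. The MG132 libraries lay below all Ctrl libraries in both. Bbc3 and Ero1a were not called in either fraction.

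Paralogs of the 10 genes moved in both directions. Of 7 tested, 2 rose and 1 fell in each fraction. The same test called 9.52% of all tested genes higher and 5.72% lower in somas, and 9.76% and 5.67% in neurites. Trib1 rose by 1.49 in somas and 1.46 in neurites, and Ppp1r15b, the constitutive counterpart of Ppp1r15a in eIF2 dephosphorylation, by 1.28 and 0.87. Sesn1, a p53 target in the family of Sesn2, fell by 1.65 (SE 0.28, adjusted p = 5.97e-04) and by 2.22 (SE 0.29, adjusted p = 6.86e-05), while Sesn2 rose by 3.33 and 3.43. Trib2, Chac2, Sesn3 and Ddit4l were not called, with log2 fold changes between -0.55 and 0.33. None of the 75-base windows of the longest transcript of any of the 10 genes occurred exactly in a transcript of another gene. Shorter reads, mismatches and other isoforms were not examined.

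**Figure D5:**
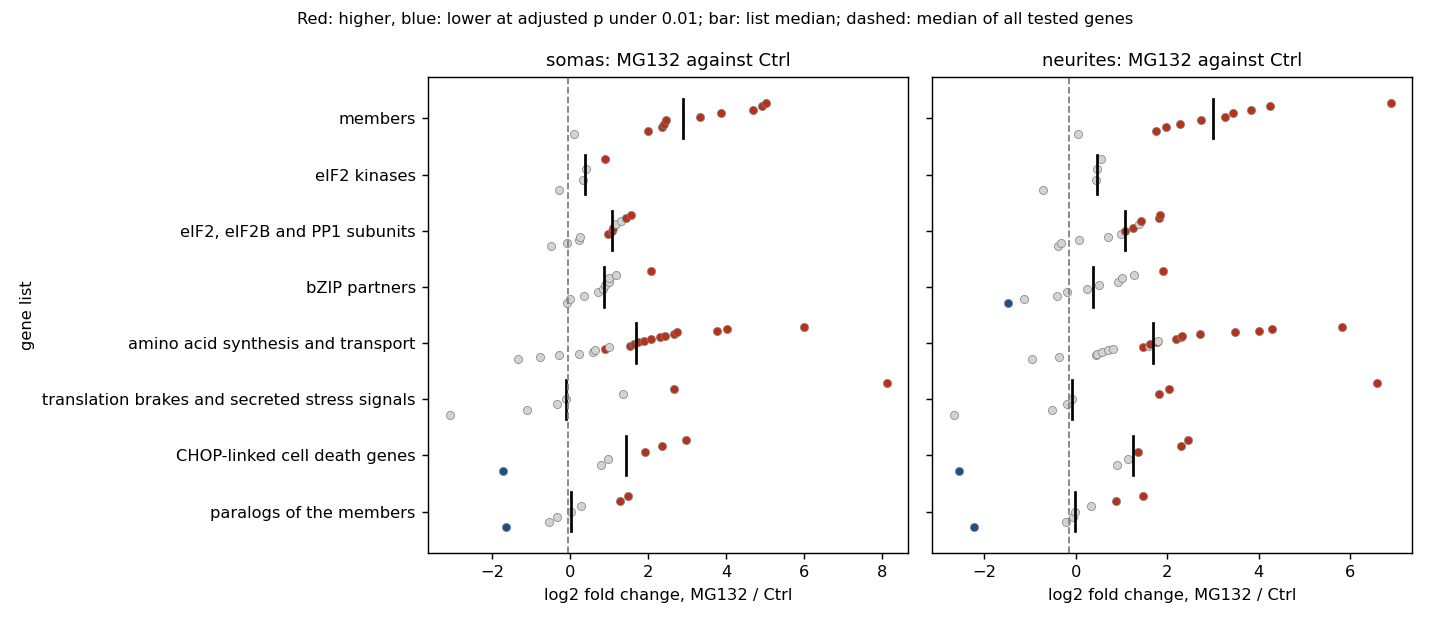
Log2 fold change, MG132 against Ctrl, of each tested gene of the 10 stress genes and the 7 pathway lists in somas (left) and neurites (right), with red points for genes called higher, blue points for genes called lower, grey points for the rest, a bar at the median of each list and a dashed line at the median of all tested genes. The medians of the 10 stress genes, 2.90 and 3.0, lie furthest to the right.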

How the data were processed

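RNA-Seq counts of 12 libraries were analysed. The authors trimmed reads with Trimmomatic (0.38.0 in the submitters' processing notes), aligned them as single-end reads to mm10 with STAR, counted reads per gene with featureCounts (2.0.1) and tested them with DESeq2 (2.11.40.7). The study gives these numbers as Galaxy versions of the tools. The deposited values are whole-number counts per Entrez gene, without normalization. The strand setting is not given beyond default parameters. Symbols from RefSeq were found for 25275 of 27179 genes, and gene coordinates also came from RefSeq. Gene strands, exon lengths and overlaps came from GENCODE M21 (GRCm38).

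Counts were tested in R 4.3.3 with edgeR 4.0.16. After filterByExpr by group, 14185 genes were fitted with TMM factors in a quasi-likelihood model of 4 group means over 12 libraries, and p-values were adjusted by Benjamini-Hochberg over all of them. A call needed an adjusted p under 0.01. The study also used a fold threshold of 1.7, tried here as an alternative on the log2 and the linear scale. Standard errors are the log2 fold change over the root of F. Intervals of pooled ratios are exact, from counts summed over 3 libraries. Fitted fold changes carry edgeR's prior count. The model was tested on simulated counts.

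The members and lists were chosen with earlier results of these data known. Genes named are the members, the 4 eIF2 kinases, up to 2 called genes with the largest rise and 2 with the largest fall in each other list and MG132 comparison, and the 3 genes that correlate best with Atf4 and with Ddit3. Bcl2l11, Cbs, Bbc3, Ero1a, the genes with too few reads and the paralogs that were not called were named after their values were seen. Libraries with the same number deviated together from their group means (r from 0.0972 to 0.248, above 0.1 in 17 of 18 pairs of groups and numbers and in all pairs of groups compared directly), and the pairing comes from the replicate numbers of the labels and this check, though the name of 1 MG132 neurites library carries another date than the rest of its number. The alternatives were other scalings, filters, thresholds and libraries, DESeq2 1.42.0 and the replicate block.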

Additional observations from a re-analysis of the deposited data

How the results depend on the processing

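Of the values of the 10 genes in each comparison, the rises after MG132 kept their direction for all but Ddit4 and their calls for all but Ddit4 and Nupr1 wherever a gene was tested. Requiring 10 or more counts in each library left 8 of the 10 genes to test, without Chac1 and Trib3, and gave 6 higher in somas and 6 in neurites, and leaving out each library gave 8 to 9 in both. In Ctrl, neurites against somas gave 0 higher with total counts, with the compared groups alone and with a log2 fold change above 1.7, and 0 lower with at least 10 counts and with the compared groups alone. Leaving out libraries gave 0 to 1 in each direction. In MG132, the replicate block gave 1 higher and 1 lower, beside 1572 and 910 of all tested genes. Total counts gave 4 lower there, beside 2118 of all tested genes. Of the pathway genes in somas, 16 were higher and 1 lower with a log2 fold change above 1.7, and 3 lower with DESeq2 or at an adjusted p under 0.05. In neurites 15 were higher with total counts, beside 481 of all tested genes. With the replicate block 5 were lower in neurites, beside 1613 of all tested genes, and with a log2 fold change above 1.7 it was 2. Why these counts changed was not tested beyond the fewer genes or libraries in a fit.

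Signs turned for values near 0. For Ddit4 after MG132 the value was -0.020 in somas and -0.058 in neurites with at least 10 counts, and -0.13 in neurites with total counts, and leaving out libraries gave -0.21 to 0.61 and -0.092 to 0.35. For neurites against somas in Ctrl, total counts gave -0.53 for Atf4, -0.10 for Atf3, -0.50 for Trib3 and -0.58 for Ppp1r15a, the block gave -0.036 for Trib3, and no filter gave -2.4e-05 for Ppp1r15a. Leaving out libraries gave -0.038 to 0.14 for Atf4, -1.06 to 0.53 for Trib3, -0.087 to 0.17 for Ppp1r15a and -0.33 to 1.13 for Nupr1. In MG132, Atf4 was at -0.0018 with DESeq2 size factors, -0.0020 with DESeq2, -0.78 with total counts, -0.067 with at least 10 counts and -0.0044 with the block, and Nupr1 at -0.25 with total counts. Leaving out libraries gave -0.15 to 0.23 for Atf4 and -0.29 to 0.14 for Atf3. For the difference of the responses, Sesn2 was at -0.0055 with total counts, Ddit4 at 0.0085, 0.014 and 0.088 and Nupr1 at 0.034, 0.050 and 0.11 with DESeq2 size factors, DESeq2 and no filter, and Nupr1 at 0.075 with the block. Leaving out libraries gave -0.28 to 0.11 for Atf4, -1.28 to 0.33 for Trib3, -0.024 to 0.38 for Sesn2, -0.45 to 0.37 for Ddit4 and -0.50 to 0.97 for Nupr1. The cause of these turns was not tested.

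Over all genes, the interaction had 0 calls in edgeR, with 474 genes higher and 526 lower at an unadjusted p under 0.05, 21 higher and 8 lower in DESeq2, and 14 and 7 with the replicate block, which changed no other call of the 10 genes than those given above. After MG132 in neurites, total counts gave 481 genes higher and 538 lower, against 1385 and 804 with TMM, and in somas 492 and 418 against 1350 and 812. Depth limits Chac1, Trib3, Cth and Gdf15, whose Ctrl libraries held few reads. A library left out leaves 2 in a group, whose spread is then borrowed in part from the other groups.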
